A study of Bos taurus with 6 samples.

Results

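Mitochondrial fatty acid beta-oxidation was followed through 34 genes in the longissimus dorsi muscle (LDM), the back muscle in which marbling fat is laid down, of Wagyu, a Japanese black breed, and of Chinese Red Steppes cattle. The genes were chosen by name for their place in the pathway, from acyl-CoA synthesis to thiolysis, and all 34 of 34 were found among the 21972 genes of the expression table, CRAT and ACOT13 by their symbol and the others by their gene name. WC616, WC719 and WC921 were 3 Wagyu males by the same bull, and RC4, RC5 and RC6 were 3 Chinese Red Steppes males with a common father. The males were 28 months old, were fed corn and hay, and each breed came from its own farm. Breed, sire and farm therefore cannot be told apart. 1 poly(A) library per animal was sequenced, and the labels name no treatment.

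A long-chain fatty acid is activated to an acyl-CoA and handed to carnitine at the outer mitochondrial membrane. It crosses the inner membrane as acylcarnitine and is returned to CoA in the matrix. Each round of oxidation there dehydrogenates the acyl-CoA, hydrates the double bond, oxidises the hydroxyl group and cleaves off acetyl-CoA. Malonyl-CoA, the building block of fatty acid synthesis, blocks entry at the carnitine step. In skeletal muscle, slow oxidative fibres are known for a greater use of fatty acids than fast glycolytic fibres.

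Expression was given as FPKM, the number of fragments per kilobase of gene, scaled to the gene reads of the library, so levels of different genes were compared per length. The libraries held 15438095 to 16197141 reads counted to genes. Differences between the breeds were tested with limma, on both sides, on log2(FPKM + 1) wherever the mean FPKM was 1 or more, and p values were adjusted by Benjamini and Hochberg over these 9990 genes. A positive log2 fold change means a higher level in Wagyu, its standard error is written SE, and adding 1 shrinks the change of low genes. Library values are listed in the order WC616, WC719, WC921 and RC4, RC5, RC6. Of the 34 genes 32 passed this filter, and ACSL6 and CPT1C did not. The libraries carried the genes that define skeletal muscle, with a summed FPKM of 88988 to 103650 over the 10 genes listed. RC6 stood apart from the others. The 11 slow fibre markers summed to 98557 FPKM in RC6, against 50053 in RC4, 41449 in RC5 and 54516 to 64213 in Wagyu. The 12 fast fibre markers summed to 43879 in RC6, against 85155 in RC4, 94888 in RC5 and 65699 to 81627 in Wagyu. In bulk tissue, fewer cells of a type and less RNA per cell cannot be told apart. Results that rest on RC6 are given with and without it below.

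The levels spanned several orders of magnitude. In 7 of the 34 genes the mean over the 6 libraries was at least 100 FPKM, in 12 it lay between 10 and 100, in 13 between 1 and 10, and in 2 under 1. ACADVL and CRAT were the highest, at means of 272 and 270 FPKM, and did not differ beyond their spread. They held ranks 271 and 273 among all genes of the table. The summed FPKM of the 34 genes was 1840, 1980 and 1861 in Wagyu, against 1492, 1627 and 2232 in Chinese Red Steppes. RC6 was thus the highest library and RC4 the lowest, and the Wagyu libraries lay between RC5 and RC6.

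**Figure D1:**
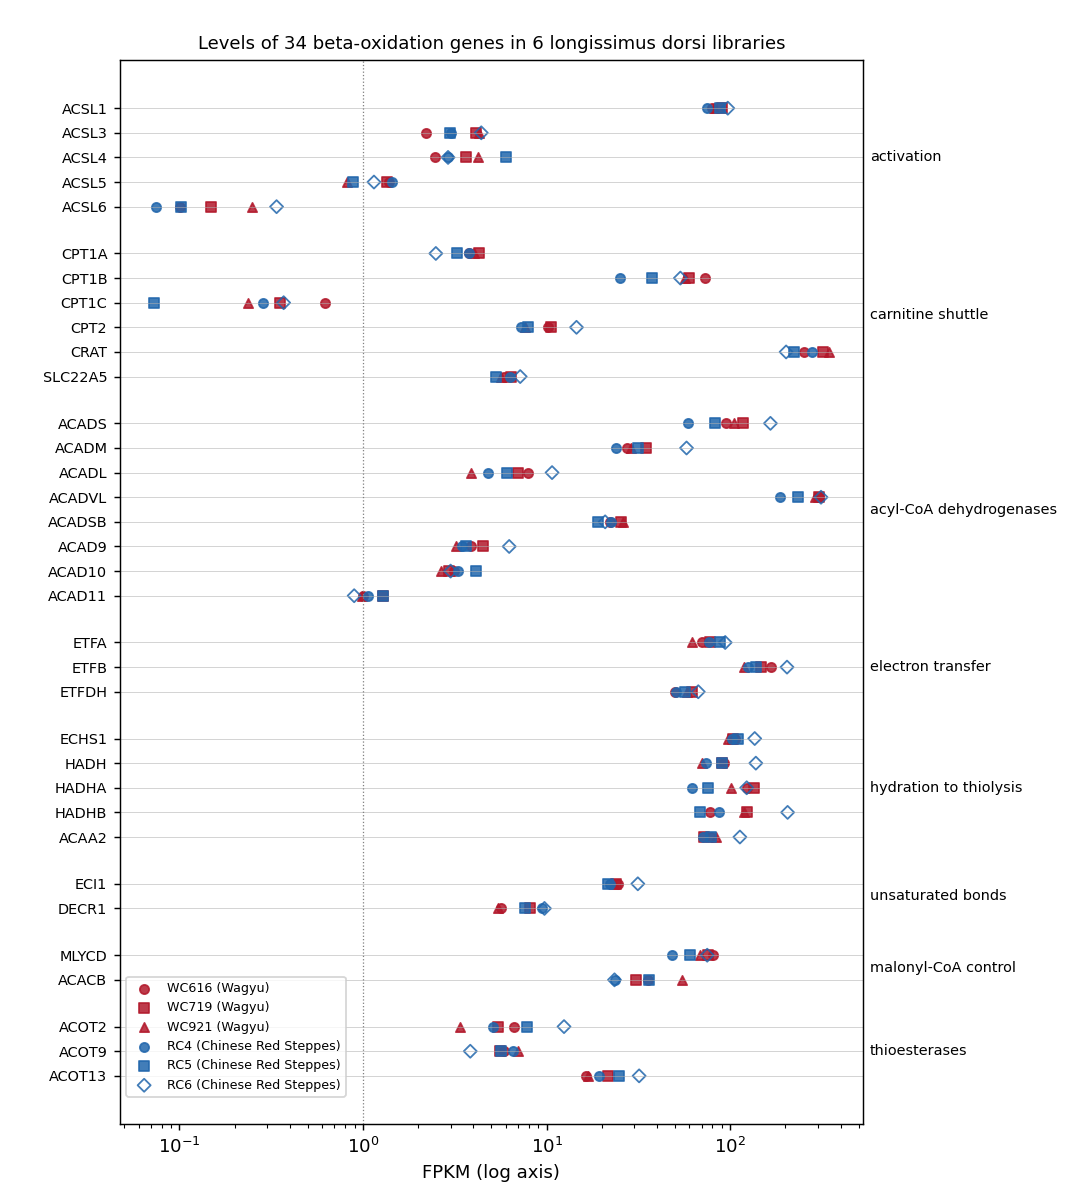
FPKM of the 34 genes on a log axis, grouped by step, with 1 symbol per library (red, Wagyu; blue, Chinese Red Steppes; open diamond, RC6; dotted line, 1 FPKM). RC6 lies to the right of the other 5 libraries in most steps, and CPT1B is the gene whose 3 red symbols all lie to the right of the blue ones.

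None of the 32 genes tested passed limma for the difference between the breeds (adjusted p from 0.297 to 0.997), where 0.02% of all genes tested did. With an unadjusted p under 0.05, 1 gene, CPT1B, was higher in Wagyu and none was lower, against 8.64% and 5.87% of all genes tested. The quasi-likelihood test of edgeR and the test of DESeq2, run on reads worked back from the FPKM, also called none of these genes, against 0.0685% and 1.94% of the genes they tested. The breeds did not overlap in CPT1B alone, against 11.4% of all genes tested without overlap and higher in Wagyu and 9.16% lower. The log2 fold change lay above 0 in 13 genes (53.7% of all genes) and below 0 in 19 (46.3%), with a median of -0.04, and the median over all genes tested was 0.03. With every library scaled to an equal sum the median of the 32 was 0.02. Standard errors of 0.14 to 0.40 (median 0.20) applied to these differences between 3 animals and 3.

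Activation by long-chain acyl-CoA synthetases rested on ACSL1, the main form of fat, liver and muscle. It took 89.5% to 92.8% of the FPKM of the ACSL family in every library. ACSL1 (ENSBTAG00000004344) was at 79.3, 90.8 and 81.2 FPKM in Wagyu, against 75.1, 87.8 and 97.1 in Chinese Red Steppes. The breeds overlapped, at 83.8 ± 6.18 and 86.6 ± 11.04 FPKM (SD, n = 3 each), and the difference was -0.04 on the log2 scale (SE 0.14, limma adjusted p = 0.913). ACSL3, a synthetase of the endoplasmic reticulum and lipid droplets, ACSL4, which prefers arachidonic acid, and ACSL5 had means of 3.51, 3.70 and 1.17 FPKM. Their log2 fold changes were 0.003, -0.11 and 0.01. ACSL6, the form of brain, was at 0.0751 to 0.339 FPKM, or 3 to 13 reads per library, and was not tested.

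Carnitine acyl transfer held the widest gap between the breeds. CPT1B (ENSBTAG00000016048) is the muscle form of carnitine palmitoyltransferase 1 and the step at which malonyl-CoA acts. The paper reports it, and HADHB of the later steps, among genes differently spliced between the breeds in RNA-seq. The PCR checks of splicing in the paper were made on CSDA and ITGA7 instead. CPT1B stood at 72.7, 59.4 and 56.5 FPKM in Wagyu (3422, 2854 and 2707 reads), against 25.1, 37.7 and 53.6 in Chinese Red Steppes (1196, 1759 and 2454 reads). Every Wagyu library was above every Chinese Red Steppes library, with RC6 the nearest. The difference of 0.74 (SE 0.26) did not pass limma (adjusted p = 0.297). Without RC6 it was 1.0 (SE 0.21, limma adjusted p = 0.175), and DESeq2 on recovered reads, an alternative added after the data were seen, then gave 0.97 (SE 0.24, adjusted p = 0.00893; 0.00893 to 0.558 over all alternatives).

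The other CPT1 genes were low. CPT1A, the liver form, was at 3.80, 4.26 and 4.04 FPKM in Wagyu, against 3.80, 3.25 and 2.50 in Chinese Red Steppes. RC6, the highest library for most of the pathway, was the lowest for CPT1A, and the breeds touched at RC4. CPT1C, the form of neurons, was at 0.0727 to 0.624 FPKM, or 3 to 26 reads per library, and was not tested. CPT1B took 92.8% to 94.3% of the CPT1 FPKM in the Wagyu libraries and 86.0%, 91.9% and 94.9% in RC4, RC5 and RC6.

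CPT2, which returns the acyl group to CoA inside the inner membrane, did not follow CPT1B. It was at 10.2, 10.6 and 7.65 FPKM in Wagyu, against 7.25, 7.89 and 14.6 in Chinese Red Steppes, so that RC6 was above all others. Within a library, the ratio of CPT1B to CPT2 FPKM was 7.13, 5.61 and 7.38 in Wagyu, against 3.46, 4.78 and 3.68 in Chinese Red Steppes. The ratio, chosen after the values were seen and not tested, did not overlap between the breeds, and RC6 lay between RC4 and RC5 in it. It has no share over other gene pairs beside it. Against HADHA, a gene of the later steps, the CPT1B ratio did overlap between the breeds. That ratio was 0.587, 0.439 and 0.561 in Wagyu, against 0.405, 0.4996 and 0.435 in Chinese Red Steppes. CPT2 itself had a log2 fold change of -0.01 (SE 0.26, limma adjusted p = 0.993) and 0.28 (SE 0.19, adjusted p = 0.573) without RC6.

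CRAT (ENSBTAG00000001932), which moves acetyl and other short acyl groups between CoA and carnitine, took 72.1% to 86.7% of the FPKM of the 6 genes of this step. It was at 254, 321 and 345 FPKM in Wagyu, against 279, 222 and 202 in Chinese Red Steppes. RC6 was here the lowest library, and RC4 overlapped with WC616. CRAT differed by a log2 fold change of 0.39 (SE 0.18, limma adjusted p = 0.374). In the RefSeq annotation CRAT overlaps PTPA, and the sources used here do not give whether strand was used in counting, so its reads may include those of that gene. SLC22A5, the carnitine transporter of the cell membrane, was at 5.27 to 7.19 FPKM over the 6 libraries, with a log2 fold change of -0.05.

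**Figure D2:**
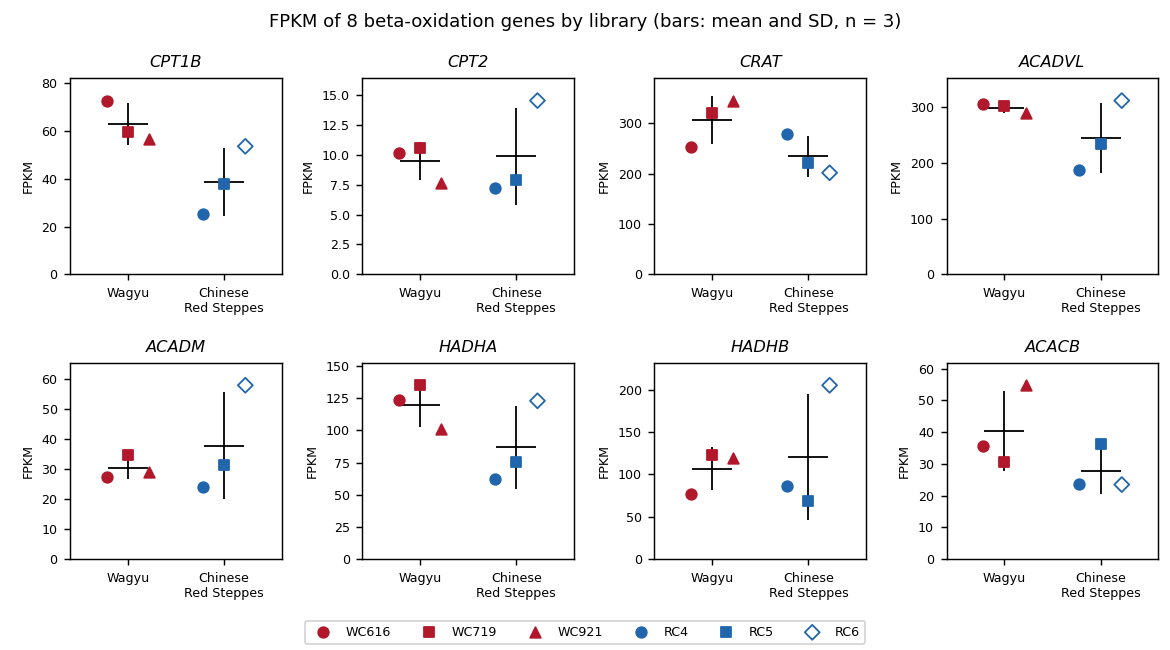
FPKM of 8 genes of the pathway by library (points; bars, mean and SD, n = 3; vertical axes from 0). RC6 (open diamond) is the highest library for CPT2, ACADVL, ACADM and HADHB and the lowest for CRAT and ACACB, and the Wagyu points of CPT1B, from 56.5 to 72.7 FPKM, lie above all Chinese Red Steppes points.

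The acyl-CoA dehydrogenases, which open each round and are named for the chain length they take, were ordered in level as ACADVL, ACADS, ACADM and ACADSB. ACADVL (ENSBTAG00000003072), the very-long-chain enzyme of the inner membrane, was at 306, 303 and 289 FPKM in Wagyu, against 187, 235 and 312 in Chinese Red Steppes. The Wagyu values lay within a narrow band of 299 ± 8.93 (SD, n = 3), while those of Chinese Red Steppes spread over 245 ± 63.4 (SD, n = 3) from the lowest to the highest library of all. ACADS, the short-chain enzyme, was at 95.5, 118 and 105 FPKM in Wagyu, against 58.6, 82.6 and 166 in Chinese Red Steppes. ACADM (ENSBTAG00000024240), the medium-chain enzyme, was at 27.4, 34.7 and 29.0 FPKM in Wagyu, against 23.8, 31.4 and 57.9 in Chinese Red Steppes. In all 3 genes RC4 was the lowest and RC6 the highest library. The log2 fold changes were 0.32 (SE 0.19) for ACADVL, 0.18 (SE 0.34) for ACADS and -0.21 (SE 0.30) for ACADM, with adjusted p values of 0.479, 0.837 and 0.78 from limma. Without RC6 they were 0.51, 0.60 and 0.14, with adjusted p values of 0.249, 0.283 and 0.793.

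The rise of RC6 over RC4 and RC5 was not the same for each chain length. RC6 stood at 2.35 times the mean of RC4 and RC5 for ACADS, 2.09 times for ACADM, 1.97 times for ACADL, the long-chain enzyme, and 1.48 times for ACADVL. The ratio of ACADVL to ACADM was 11.2, 8.73 and 9.98 in Wagyu and 7.85, 7.47 and 5.40 in RC4, RC5 and RC6, which did not overlap. This ratio too was chosen after the values were seen, was not tested and has no share over other gene pairs beside it. ACADL itself was low, at 3.89 to 7.95 FPKM in Wagyu and 4.80 to 10.7 in Chinese Red Steppes.

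The other dehydrogenases were at lower levels. ACADSB, which serves the breakdown of isoleucine, was at 22.2 to 25.98 FPKM in Wagyu and at 19.0 to 22.4 in Chinese Red Steppes, with RC6 at 1.006 times the mean of RC4 and RC5 (log2 fold change 0.23, SE 0.14, limma adjusted p = 0.469). ACAD9, which is known for the assembly of respiratory complex I, had a mean of 4.16 FPKM, and RC6 was highest at 6.26. ACAD10 and ACAD11, of which RC6 was not the highest library, had means of 3.20 and 1.09 FPKM. None of these 4 passed limma.

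Electrons from the dehydrogenases go to the electron transfer flavoprotein, made of ETFA and ETFB, and on to ubiquinone through ETFDH. ETFA was at 69.9, 77.4 and 62.1 FPKM in Wagyu, against 76.6, 88.1 and 94.0 in Chinese Red Steppes. WC719 was the only Wagyu library above any Chinese Red Steppes library, RC4. On the log2 scale the difference was -0.30 (SE 0.14, limma adjusted p = 0.384), and -0.24 without RC6. ETFB, its partner, was at 167, 148 and 119 FPKM in Wagyu, against 125, 138 and 204 in Chinese Red Steppes, and the ratio of ETFB to ETFA ran from 1.57 in RC5 to 2.39 in WC616. ETFDH was at 49.8 to 62.3 FPKM in Wagyu and at 50.6 to 67.0 in Chinese Red Steppes. RC6 was the highest library for all 3 genes.

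The steps from hydration to thiolysis were encoded at like levels, with means of 82.9 to 113 FPKM over 5 genes. ECHS1, the hydratase for short chains, was the steadiest, at 97.9 to 106 FPKM in Wagyu and 103 to 136 in Chinese Red Steppes. HADH, the dehydrogenase for short hydroxyacyl chains, was at 69.9 to 91.99 FPKM in Wagyu, against 73.8, 89.8 and 138 in Chinese Red Steppes. ACAA2, the thiolase of the matrix, was at 71.8 to 83.8 FPKM in Wagyu, against 70.9, 78.8 and 113 in Chinese Red Steppes. In each of the 3 genes RC6 was the highest library and the remaining 5 overlapped. Their log2 fold changes were -0.17, -0.22 and -0.14, and -0.05, 0.03 and 0.06 without RC6.

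HADHA and HADHB encode the alpha and beta subunits of the trifunctional protein, which carries out the last 3 reactions for long chains, and are neighbours in the bovine RefSeq annotation. HADHA (ENSBTAG00000015038) was at 124, 135 and 101 FPKM in Wagyu, against 61.9, 75.5 and 123 in Chinese Red Steppes. RC4 and RC5 lay below every Wagyu library, while RC6 was level with WC616. HADHA had a log2 fold change of 0.51 (SE 0.26, limma adjusted p = 0.40) and 0.79 (SE 0.17, adjusted p = 0.19) without RC6. DESeq2 on recovered reads without RC6, added after the data were seen, gave 0.76 (SE 0.20, adjusted p = 0.0154; 0.0154 to 0.676 over all alternatives).

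HADHB (ENSBTAG00000010083) ranked the libraries otherwise than its partner. It was at 77.2, 123 and 119 FPKM in Wagyu, against 86.6, 68.3 and 205.5 in Chinese Red Steppes, where RC6 was 2.65 times the mean of RC4 and RC5, the largest such ratio among the 32 genes tested. The ratio of HADHB to HADHA, of subunits that are built into the protein in equal number, was 0.624, 0.912 and 1.18 in Wagyu, against 1.40, 0.905 and 1.67 in Chinese Red Steppes. The ratio overlapped between the breeds. For HADHB the log2 fold change was -0.03 (SE 0.40, the largest among the 32) and 0.43 (SE 0.23, limma adjusted p = 0.479) without RC6.

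Unsaturated fatty acids need the isomerase ECI1 and the reductase DECR1 in addition. ECI1 was at 23.3 to 24.4 FPKM in the Wagyu libraries, against 22.3, 21.7 and 31.4 in Chinese Red Steppes. DECR1 was at 5.65, 8.12 and 5.47 FPKM in Wagyu, against 9.40, 7.65 and 9.74 in Chinese Red Steppes, with WC719 above RC5 as the only overlap. Its log2 fold change of -0.43 (SE 0.19) did not pass limma (adjusted p = 0.345) and was -0.37 (adjusted p = 0.50) without RC6. RC6 was 1.14 times the mean of RC4 and RC5, and the difference was of like size without it.

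Both genes listed here for the control of malonyl-CoA had higher means in Wagyu. ACACB, the acetyl-CoA carboxylase of the outer mitochondrial membrane that makes malonyl-CoA, was at 35.7, 30.6 and 54.7 FPKM in Wagyu, against 23.6, 36.2 and 23.4 in Chinese Red Steppes. MLYCD, the decarboxylase that removes it, was at 80.6, 75.8 and 68.8 FPKM in Wagyu, against 48.4, 60.4 and 75.0 in Chinese Red Steppes. RC5 overlapped with Wagyu in ACACB and RC6 in MLYCD. The log2 fold changes were 0.51 (SE 0.26, adjusted p = 0.402) for ACACB and 0.31 (SE 0.18, adjusted p = 0.461) for MLYCD from limma, and 0.41 and 0.46 (adjusted p = 0.588 and 0.308) without RC6. The ratio of ACACB to MLYCD ran from 0.404 to 0.795 in Wagyu and from 0.313 to 0.599 in Chinese Red Steppes.

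The thioesterases release free fatty acids from acyl-CoA. ACOT2, the long-chain enzyme of the matrix, was at 6.67, 5.41 and 3.38 FPKM in Wagyu, against 5.14, 7.85 and 12.5 in Chinese Red Steppes. ACOT13, a small enzyme of mitochondria and cytosol, was at 16.4, 21.5 and 16.9 FPKM in Wagyu, against 19.4, 24.7 and 31.9 in Chinese Red Steppes. The breeds overlapped in both, by RC4. The log2 fold changes were -0.59 (SE 0.32, adjusted p = 0.439) for ACOT2 and -0.43 (SE 0.20, adjusted p = 0.379) for ACOT13 from limma, and -0.30 and -0.26 without RC6. ACOT2 belongs to a family of similar genes, so its reads are uncertain. ACOT9 was lowest in RC6, at 3.84 FPKM against 5.57 to 6.98 in the other libraries.

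RC6 was the highest of the 6 libraries in 20 of the 32 genes tested, where 25.0% of all genes tested had RC6 as the highest. It was above both RC4 and RC5 in 23 of the 32, against 39.8% of all genes, and over 1.5 times their mean in 12 of the 32, against 12.9%. These counts describe 1 animal and carry no test. RC4 was the lowest library in 9 genes (14.3% of all genes) and WC921 in 10 (17.1%). The spread on the log2 scale was larger in Chinese Red Steppes than in Wagyu in 26 of the 32, while 59.2% of all genes tested showed this. The genes that RC6 did not raise above RC4 and RC5 were ACSL4, ACSL5, CPT1A, CRAT, ACADSB, ACAD10, ACAD11, ACACB and ACOT9.

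Leaving out RC6 necessarily raised the log2 fold change of the 23 genes in which RC6 was above both RC4 and RC5. The counts below therefore follow in large part from the position of RC6 and are no separate result. The log2 fold change lay above 0 in 24 of the 32 genes without RC6, and below it in 8, where 55.0% and 45.0% of all genes did, and 13 genes changed sign, 12 of them to above 0. The median went from -0.04 to 0.10 (0.03 over all genes tested). That shift was within the spread between replicates of the library medians, 0.163 on the log2 scale. RC6 itself is part of that spread, so it cannot show the shift to be small. With an unadjusted p under 0.05, CPT1B, ACADS, ACADVL, HADHA and MLYCD were higher in Wagyu and none was lower, against 7.94% and 4.67% of all genes. No gene of the pathway passed limma, nor did any of the 9990 genes. On recovered reads without RC6, edgeR called none of the 32 (0.117% of the genes it tested) and DESeq2 called 2, CPT1B and HADHA (1.86%). All 3 Wagyu libraries were above RC4 and RC5 in 6 genes, these 5 and ECI1, against 17.5% of all genes tested, and below both in ACAD10, against 13.5%. With 2 animals left in Chinese Red Steppes, these values describe few animals.

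**Figure D3:**
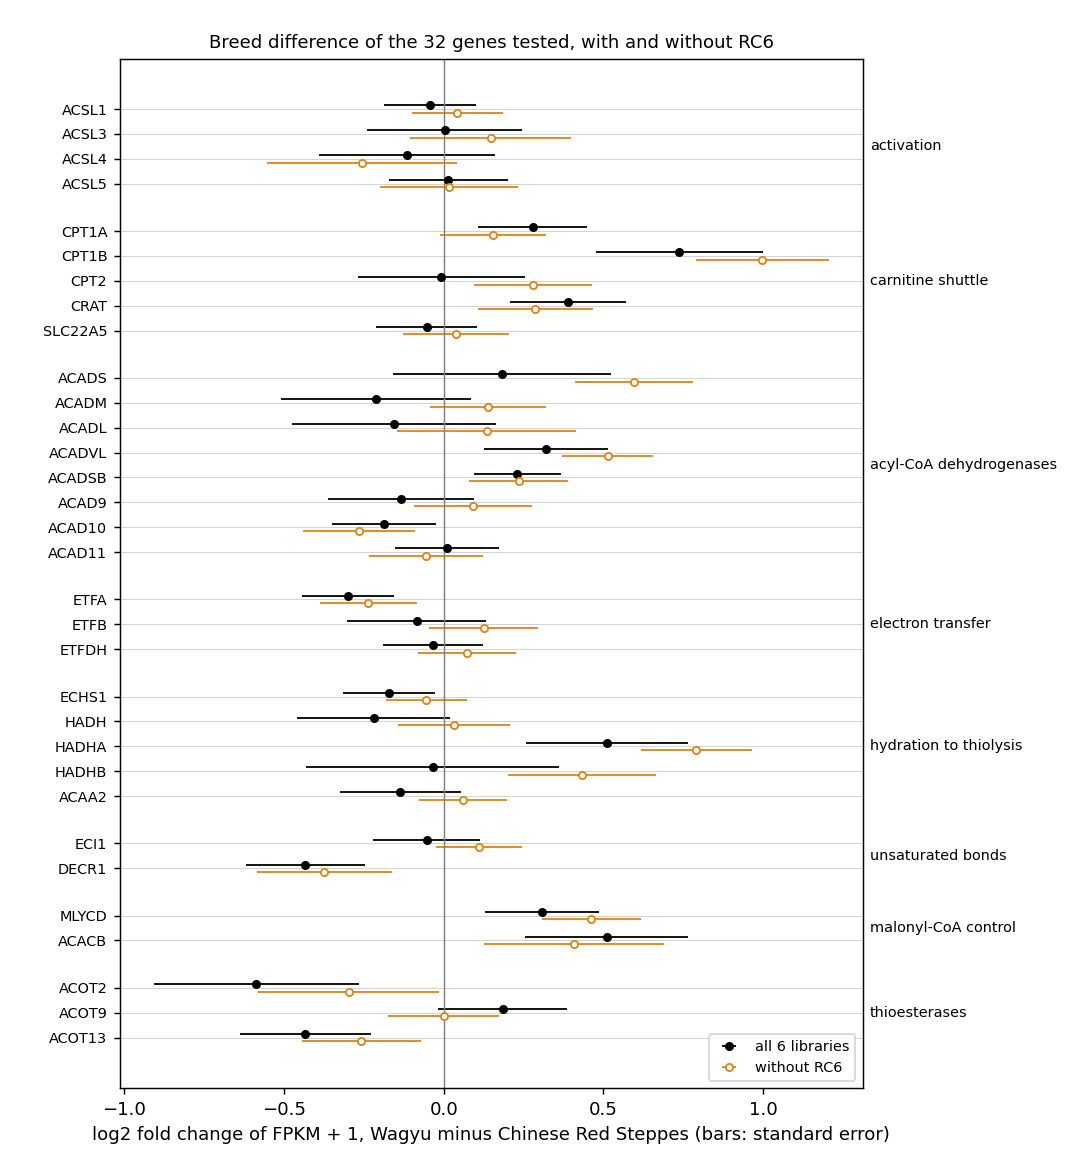
Log2 fold change of each of the 32 genes tested, Wagyu minus Chinese Red Steppes on the log2(FPKM + 1) scale, with all 6 libraries (filled) and without RC6 (open), bars being standard errors from limma. CPT1B is the farthest to the right in both, at 0.74 and 1.0, and HADHB and ACADS shift most when RC6 is left out.

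Other lists of genes showed which parts of muscle metabolism shared the position of RC6. Each gene was set relative to its mean over the 6 libraries, and the median over the list was taken. In RC6 this median was 0.28 for the beta-oxidation genes, against -0.18 in RC4, -0.08 in RC5 and -0.06 to 0.10 in Wagyu. The 7 genes of fatty acid uptake that were tested stood at 1.14 in RC6, the 13 genes of the mitochondrial genome at 1.19 and the 11 slow fibre markers at 0.85. The fast fibre markers stood at -0.75 and glycolysis at -0.49 there, and the tricarboxylic acid cycle at 0.20. The median over all genes was 0.01. The part that fibre makeup has in the values of the beta-oxidation genes was not tested.

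**Figure D4:**
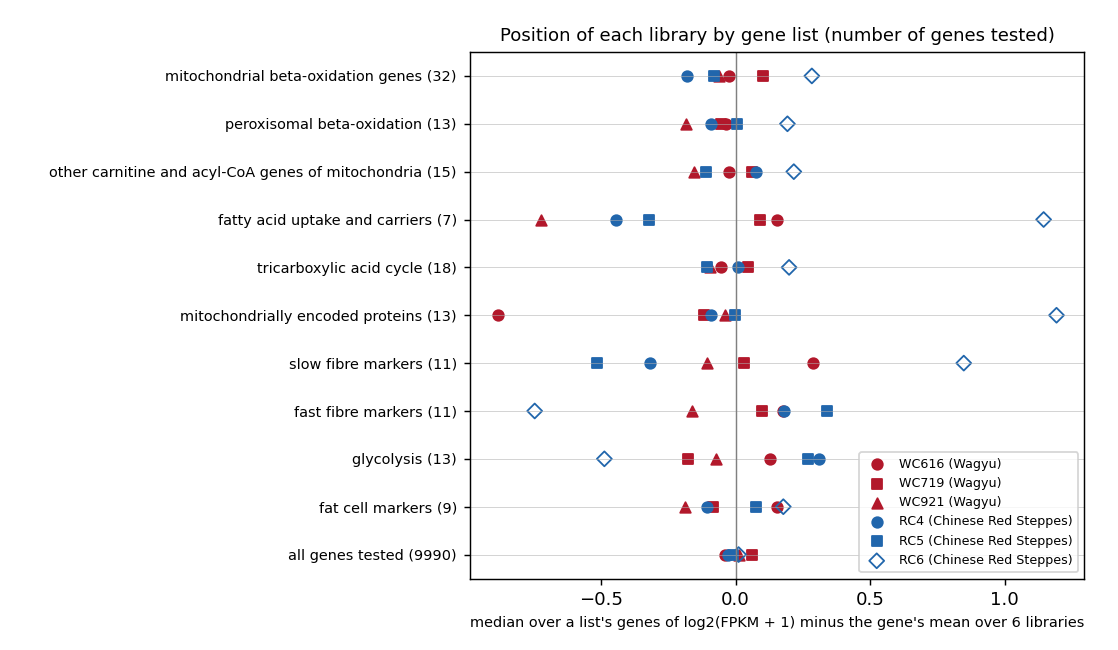
Median over each gene list of log2(FPKM + 1) minus the gene's mean over the 6 libraries, for each library (red, Wagyu; blue, Chinese Red Steppes; open diamond, RC6), with the number of genes tested. RC6 lies at 0.28 for the beta-oxidation genes and is the highest library for every list shown except fast fibre markers and glycolysis, in which it is the lowest, and all genes tested, in which it stands at 0.01.

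No list held a gene past limma. Of 7 genes of fatty acid uptake tested, RC6 was the highest library in 6, and none had an unadjusted p under 0.05. LPL, the lipase that frees fatty acids from blood lipids, was at 43.6 FPKM in RC6 and at 5.01 to 11.7 in the other 5 libraries. SLC27A1, a fatty acid transporter of muscle, was at 88.2 FPKM in RC6 and at 27.9 to 42.5 elsewhere. BDH1, the dehydrogenase of ketone bodies, was at 67.9 FPKM in RC6 and at 2.15 to 5.23 in the other libraries, an even wider step. VLDLR, also of the uptake list, was highest in WC921, at 42.3 to 67.6 FPKM in Wagyu and 34.7 to 45.9 in Chinese Red Steppes (limma adjusted p = 0.362). Of 11 genes tested for ketone body and acetyl-CoA use, OXCT1 and PDHB were lower in Wagyu without overlap, against 9.16% of all genes. OXCT1 was at 19.0 to 29.6 against 30.5 to 54.0 FPKM and PDHB at 119 to 137 against 144 to 164 (limma adjusted p = 0.322 and 0.473).

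Peroxisomal beta-oxidation shortens very long chains. Of 13 genes tested, 4 lay above 0 and 9 below (median log2 fold change -0.19). EHHADH, a bifunctional enzyme of this pathway, was at 1.22, 1.06 and 0.362 FPKM in Wagyu, against 2.57, 3.32 and 4.30 in Chinese Red Steppes. Every Wagyu library was below every Chinese Red Steppes library. EHHADH had a log2 fold change of -1.24 (SE 0.24, limma adjusted p = 0.156) and did not pass.

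Among 15 other carnitine and acyl-CoA genes tested, 3 had an unadjusted p under 0.05, all lower in Wagyu, against 5.87% of all genes tested. They were SLC22A4, a transporter related to the carnitine carrier, at 0.535 ± 0.529 against 2.21 ± 0.419 FPKM, and TMLHE and ALDH9A1, enzymes of carnitine synthesis, at 0.739 ± 0.233 against 1.43 ± 0.296 and at 5.91 ± 1.19 against 9.10 ± 1.50 FPKM (SD, n = 3 each). The breeds did not overlap in these 3, against 9.16% of all genes without overlap and lower in Wagyu. Their adjusted p values from limma were 0.19, 0.311 and 0.293. SLC22A4 and TMLHE had Wagyu means under the filter of 1 FPKM and passed it only through Chinese Red Steppes. The counts of 3 therefore rest in part on the filter and are no support for a breed difference. SLC25A20, the carrier that exchanges acylcarnitine for carnitine between CPT1 and CPT2, named after its values were seen, was at 56.4 to 61.9 FPKM in Wagyu and at 42.9 to 55.1 in Chinese Red Steppes. It did not overlap either and was higher in Wagyu as CPT1B was, with a log2 fold change of 0.31 (SE 0.14, limma adjusted p = 0.358).

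Of 15 regulators of fatty acid oxidation tested, 4 had an unadjusted p under 0.05, all higher in Wagyu, against 8.64% of all genes tested, and 4 were higher without overlap, against 11.4%. ESRRA, an orphan nuclear receptor known to act on genes of mitochondrial oxidation, was at 151, 189 and 178 FPKM in Wagyu, against 119, 90.9 and 114 in Chinese Red Steppes. The breeds did not overlap, and RC6 lay with RC4 and RC5, unlike most beta-oxidation genes. PPARGC1B, a coactivator of such receptors, was at 1.82 ± 0.166 against 0.923 ± 0.385 FPKM, and RXRG, a partner of the PPAR receptors, at 13.3 ± 3.27 against 7.27 ± 3.47 (SD, n = 3 each). RC4 overlapped with WC921 in RXRG. PPARGC1B had a Chinese Red Steppes mean under the filter of 1 FPKM and passed it only through Wagyu, so its place in both counts rests on the filter. Differences on the log2 scale were 0.67 (SE 0.16) for ESRRA, 0.57 (SE 0.20) for PPARGC1B and 0.84 (SE 0.30) for RXRG, with adjusted p values of 0.199, 0.29 and 0.301 from limma. RXRB, a related receptor and the last of the 4 with an unadjusted p under 0.05, named after its values were seen, was at 29.1 ± 4.62 against 22.2 ± 1.28 FPKM (SD, n = 3 each) with no overlap (limma adjusted p = 0.344). In the count without overlap, PPARA takes the place of RXRG. PPARA was at 9.81 ± 1.36 against 6.75 ± 2.18 FPKM (SD, n = 3 each, limma adjusted p = 0.370).

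Markers of other cells were measured beside these genes, and those of fat cells went both ways in RC6. ADIPOQ, the defining hormone of fat cells, was at 0.175 to 1.59 FPKM in Wagyu and at 0.078 to 1.05 in Chinese Red Steppes, with RC6 the lowest, and LEP was listed at 0 in all 3 Wagyu libraries and in RC6. CIDEC was at 1.12 to 1.69 FPKM in Wagyu and at 0.052 to 1.07 in Chinese Red Steppes, without overlap. PCK1 (0.361 to 0.538 against 0.543 to 0.942) and GPD1 (285 to 434 against 458 to 608) were lower in Wagyu without overlap. CIDEC and PCK1 were under the filter and not tested, and the nearest libraries of the breeds were close in both. Of the 9 fat cell markers tested, GPD1 alone did not overlap. Of all genes tested, 11.4% were higher and 9.16% lower in Wagyu without overlap. RC6 was also the lowest library for CIDEC, PLIN1 and SCD. CIDEC, PCK1 and PLIN1 were named after their values were seen. LPL, given above, and FABP4, a fatty acid binding protein of fat cells named after its values were seen, at 10.1 FPKM in RC6 and 0.996 to 7.23 elsewhere, were highest in RC6. RC6 was the highest library in 2 of the 9 fat cell markers tested, and their median was highest in RC6, at 0.18, with WC616 next at 0.15. The 15 fat cell markers summed to 393 to 525 FPKM in Wagyu and to 558 to 723 in Chinese Red Steppes, and most of that was GPD1, which muscle also expresses. The 8 endothelial markers summed to 138 to 171 and 89.7 to 145 FPKM, the 8 macrophage markers to 15.3 to 30.8 and 9.79 to 27.3, the 8 fibroblast markers to 144 to 230 and 82.3 to 182, and the 6 smooth muscle markers to 213 to 387 and 137 to 360. RC6 was the highest Chinese Red Steppes library for smooth muscle markers and the lowest of all for fibroblast markers. Of the red blood cell markers, HBB was at 39.6 FPKM in RC5 and at 0 to 0.811 elsewhere. The part of these cells in the values of the beta-oxidation genes was not tested.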

How the data were processed

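LDM of 3 Wagyu and 3 Chinese Red Steppes males was sequenced, 1 paired-end library per animal, and libraries were assigned to breeds by their labels. The authors deposited FPKM values of 21972 genes and, for 205 genes that they selected, raw read counts per library, a mean signal per breed, a log2 fold change and a corrected p-value. None of the latter 3, the authors' own comparison, was used here, and no beta-oxidation gene is among the 205. The paper's methods name TopHat and Bowtie, the submitters' processing notes HISAT2 with UMD3.1, and which made the values was not settled.

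Levels were tested with limma 3.58.1 (trend, R 4.3.3) on log2(FPKM + 1) wherever the mean FPKM was 1 or more, on both sides, at an adjusted p of 0.05. Reads counted to genes were worked out from the 205 genes, and FPKM then gave whole reads (within 1e-06 times the gene's largest count) for 16770 of 16770 genes above 0. They equal the deposited counts in 203 of the 205. edgeR 4.0.16 and DESeq2 1.42.0 were run on these reads as alternatives. All were tested on simulated data. Alternatives changed the pseudocount, the filter, the scaling between libraries, the test and the libraries included.

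The genes, the lists and the rule for named genes (non-overlap, unadjusted p, level within a step, 9 fixed names and, per list, up to 3 with the smallest adjusted p) were chosen with earlier results of these data known. Not every gene of the other lists that this rule names is printed. Listed symbols were matched to the gene name, else to the symbol. All lists but uptake and red blood cells were found complete in the table. With 3 against 3, the smallest two-sided p of an exact permutation test is 0.1, so none is given. P-values set the difference between the breeds against the spread between these animals, which share a sire within each breed. Python 3.11.15, pandas 2.3.3 and matplotlib 3.10.9 were used for tables and figures. Of the peroxisomal list, 1 named gene is not reported here.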

Additional observations from a re-analysis of the deposited data

How the results depend on the processing

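No paired analysis was possible because neither the labels nor the paper pair animals of one breed with those of the other. In 17 alternatives, 14 of the 32 genes kept the sign of their log2 fold change, CPT1B, HADHA, ACADVL, CRAT, DECR1 and ETFA among them, and no beta-oxidation gene passed limma or edgeR in any of them. CPT1B and HADHA passed in 1, DESeq2 without RC6, which called 2 of these genes. Their median log2 fold change was -0.04 and ran from -0.14 to 0.10, above 0 with an equal sum (0.02) and without RC6 (0.10, and 0.08 and 0.09 by edgeR and DESeq2). Over all genes, limma called 2, 1 with a pseudocount of 0.1, 0 with a mean FPKM above 0 or of at least 5 or per reads outside the mitochondrial genome, 5 with an equal sum, and 0 to 3 with 1 library left out. edgeR called 8 and DESeq2 237, and 14 and 242 without RC6. The cause of these shifts was not tested.

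Signs turned mostly near 0. ACSL3 was at -0.0052 with a pseudocount of 0.1, and ACSL3, ACSL5 and ACAD11 at -0.018, -0.0097 and -0.015 with quantile normalization. ACSL3 and ACAD11 were at -0.019 and -0.0051 with median ratio size factors, and ACSL3, ACSL5 and ACAD11 at -0.021, -0.0018 and -0.0044 per reads outside the mitochondrial genome. With an equal sum, ACSL1, CPT2, ETFDH and HADHB were at 0.012, 0.043, 0.022 and 0.020. edgeR put ACSL3, ACSL5 and ACAD11 at -0.0096, -0.0022 and -0.020, and DESeq2 ACSL3 and ACAD11 at -0.00093 and -0.014.

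Without RC6, edgeR put ACSL5, ACAD11 and ACOT9 at -0.018, -0.15 and -0.042 and CPT2, ACADM, ACADL, ACAD9, ETFB, ETFDH, HADHB, ACAA2 and ECI1 at 0.28, 0.089, 0.16, 0.080, 0.096, 0.029, 0.41, 0.020 and 0.072. DESeq2 put the same genes at -0.017, -0.15 and -0.039 and at 0.28, 0.093, 0.16, 0.083, 0.099, 0.033, 0.41, 0.023 and 0.075.

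With each library left out in turn, limma gave ranges across 0 for ACSL1 (-0.14 to 0.042), ACSL3 (-0.12 to 0.24), ACSL4 (-0.26 to 0.17), ACSL5 (-0.078 to 0.14), CPT2 (-0.18 to 0.28), SLC22A5 (-0.15 to 0.038), ACADS (-0.15 to 0.60), ACADM (-0.48 to 0.14), ACADL (-0.37 to 0.13), ACAD9 (-0.26 to 0.092), ACAD11 (-0.057 to 0.077), ETFB (-0.23 to 0.13), ETFDH (-0.13 to 0.073), HADH (-0.41 to 0.032), HADHB (-0.35 to 0.43), ACAA2 (-0.27 to 0.061) and ECI1 (-0.14 to 0.11). Reads per library were fewest for ACSL6 and CPT1C, at 3 to 26, and among the genes tested for ACAD11 and ACSL5, at 33 to 61. The part of depth in the lack of calls was not tested.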
